A study of Mus musculus with 7 samples.

Results

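Heme is made along a short chain of enzymes that begins and ends in the mitochondrion, and 8 genes of that chain were followed here in hepatocytes, the cells that make up most of the liver, isolated from mice. They are Alas1, Alas2, Alad, Uros, Urod, Cpox, Ppox and Fech, taken by symbol from the 12151 genes of the deposited table, and all 8 were found and tested among 12105 genes. Messenger RNA was sequenced from isolated hepatocytes in 4 libraries labelled ALAS1/2-KO and 3 libraries labelled WT. In the ALAS1/2-KO group a conditional Alas1 allele lets an inducible Cre recombinase remove exons 4 and 5, and Alas2 was lowered by an injected small interfering RNA (siRNA) coupled to GalNAc, a sugar that hepatocytes take up through a surface receptor. Tamoxifen is given as the treatment of the ALAS1/2-KO libraries and no treatment for the WT libraries, so the effects of genotype, of tamoxifen and of the siRNA cannot be told apart. The sources used here do not give the Cre driver, the strain, sex and age of the mice, or whether WT mice carried Cre, the conditional allele or a control siRNA. By its title, the study concerns ALAS1 as an inhibitor of small RNA silencing that acts apart from heme.

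The entry step is catalysed by δ-aminolevulinic acid synthase (ALAS), which joins glycine to succinyl-CoA in the mitochondrial matrix. ALAS1 serves most tissues, with the liver a major user because heme goes into its cytochromes P450, and ALAS2 serves red cell precursors. In the cytosol, ALAD joins a pair of aminolevulinic acid molecules into porphobilinogen, a further enzyme not described here links porphobilinogen into a chain, UROS closes the chain into a ring and UROD trims its side chains. CPOX and PPOX oxidise the ring in the mitochondrion, and FECH inserts iron to give heme. In liver, heme is known to lower Alas1 transcript levels and the import of ALAS1 into mitochondria, so that the entry step is the regulated one.

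The stretch of Alas1 that the conditional allele removes is shown because it bears on what a whole-gene value can report. Alas1 (ENSMUSG00000032786.16, mm10, chr9:106233455-106248654, minus strand) has an annotated transcript of 3089 bases in 11 exons (ENSMUST00000112524.8, GENCODE M21), which codes for 642 residues. Exon 4 lies at chr9:106241636-106241785 and exon 5 at chr9:106241116-106241338, and both are wholly coding. They are printed 5′ to 3′ on the transcribed strand, followed by the last 30 bases of exon 3 joined to the first bases of exon 6, where capitals mark the first stop codon in the reading frame.
Alas1 exon 4: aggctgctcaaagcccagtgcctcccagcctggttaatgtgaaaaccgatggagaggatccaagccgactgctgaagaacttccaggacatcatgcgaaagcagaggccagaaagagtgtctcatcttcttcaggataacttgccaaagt
Alas1 exon 5: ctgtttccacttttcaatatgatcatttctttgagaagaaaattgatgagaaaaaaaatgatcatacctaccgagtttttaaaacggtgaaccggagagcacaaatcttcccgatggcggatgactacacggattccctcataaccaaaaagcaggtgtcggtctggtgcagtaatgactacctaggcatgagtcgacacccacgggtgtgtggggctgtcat
Joined exons 3 and 6: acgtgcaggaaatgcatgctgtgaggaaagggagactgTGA

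Exon 4 holds 150 bases and exon 5 holds 223, together 373 bases or 12.1% of the transcript, and they touch residues 145 to 269. Since 373 leaves a remainder of 1 on division by 3, a transcript that joins exon 3 to exon 6 leaves the reading frame. The joined sequence reaches the stop codon 8 bases after the junction, after 147 codons in all. That stop lies 951 bases before the last exon junction of the shortened transcript. All other exons can still be counted from such a transcript, so the Alas1 level of the whole gene does not check the deletion. Exons are numbered here as in the annotated transcript, and that the allele uses the same numbering was assumed.

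**Figure D1:**
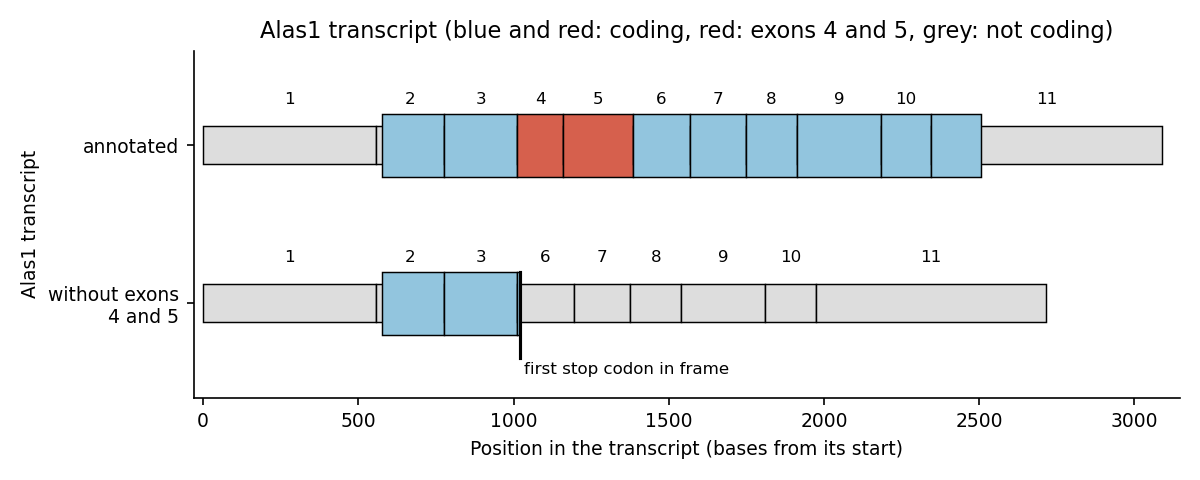
The annotated Alas1 transcript and the same transcript without exons 4 and 5, drawn to scale in bases from the transcript start, with coding parts in blue, exons 4 and 5 in red and non-coding parts in grey. The removed 373 bases leave a transcript in which the first stop codon in frame lies 8 bases after the new junction.

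Levels are given in CPM, which relates the reads of a gene to the library size as scaled by the authors. The listed genes held 27933939 to 30195635 reads in ALAS1/2-KO libraries and 22916097 to 34048680 in WT libraries, and 1 read was worth 0.0302 to 0.0330 CPM in ALAS1/2-KO and 0.0293 to 0.0522 CPM in WT. Mitochondrially encoded genes took 23.8 ± 4.72% of the listed reads in ALAS1/2-KO and 37.9 ± 5.68% in WT (SD, n = 4 and 3). All 10 hepatocyte markers were tested, with a median log2 fold change of 0.27 and 3 of 10 below 0. The 1 that passed in limma was the albumin gene Alb, lower in ALAS1/2-KO (53409 ± 2537 against 97897 ± 3431 CPM, log2 fold change -0.87, limma adjusted p = 0.00606). Kupffer cell markers summed to 175 to 1122 CPM in ALAS1/2-KO and 640 to 917 CPM in WT, and stellate cell markers to 41.0 to 196 CPM in ALAS1/2-KO and 176 to 316 CPM in WT. Endothelial markers summed to 54.4 to 228 CPM in ALAS1/2-KO and 214 to 262 CPM in WT. The lowest sum of each of these 3 lists was that of ALAS1/2-KO replicate 1, and no gene of the 3 lists passed in limma. Every marker of the 3 lists nevertheless had a log2 fold change below 0. The median was -0.46 over 7 Kupffer, -0.83 over 6 endothelial and -1.29 over 6 stellate markers. Before adjustment, limma p fell below 0.05 for 0 Kupffer, 2 endothelial and 5 stellate markers, and for 23.7% of all genes tested. Of 5 lymphocyte markers 2 were tested. Cd79a, a B cell receptor subunit, was lower in ALAS1/2-KO (0.568 ± 0.281 against 2.61 ± 0.548 CPM). Its log2 fold change was -2.18 (limma adjusted p = 0.0335). Cd79a reached 1 CPM only in WT libraries (1.98 to 3.02 CPM, against 0.212 to 0.862 CPM in ALAS1/2-KO). The filter of 1 CPM in 3 libraries was thus met through WT alone, so its selection is not independent of its lower level in ALAS1/2-KO. The other marker was Ptprc, named after its values were seen. Its groups overlapped (5.56 to 27.3 CPM in ALAS1/2-KO, 18.3 to 29.4 CPM in WT, limma adjusted p = 0.658). Of 4 cholangiocyte markers only Sox9 was tested, at 1.63 to 2.08 CPM in ALAS1/2-KO and 1.2 to 4.30 CPM in WT, and it did not pass. In bulk samples such as these, fewer cells of a type and less RNA per cell cannot be told apart.

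Of the 8 enzyme genes, only Alas2 passed limma's test at an adjusted p under 0.05. It was lower in ALAS1/2-KO, and the other 7 did not pass. Over all genes tested, 5.1% passed in either direction and 2.19% were lower. The median log2 fold change was -0.03 over the 8 genes and -0.02 over all genes tested. Alas1 and Alas2 were the 2 enzyme genes whose groups did not overlap, Alas1 on the high side in ALAS1/2-KO and Alas2 on the low side. Groups did not overlap for 22.7% of all genes tested.

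**Figure D2:**
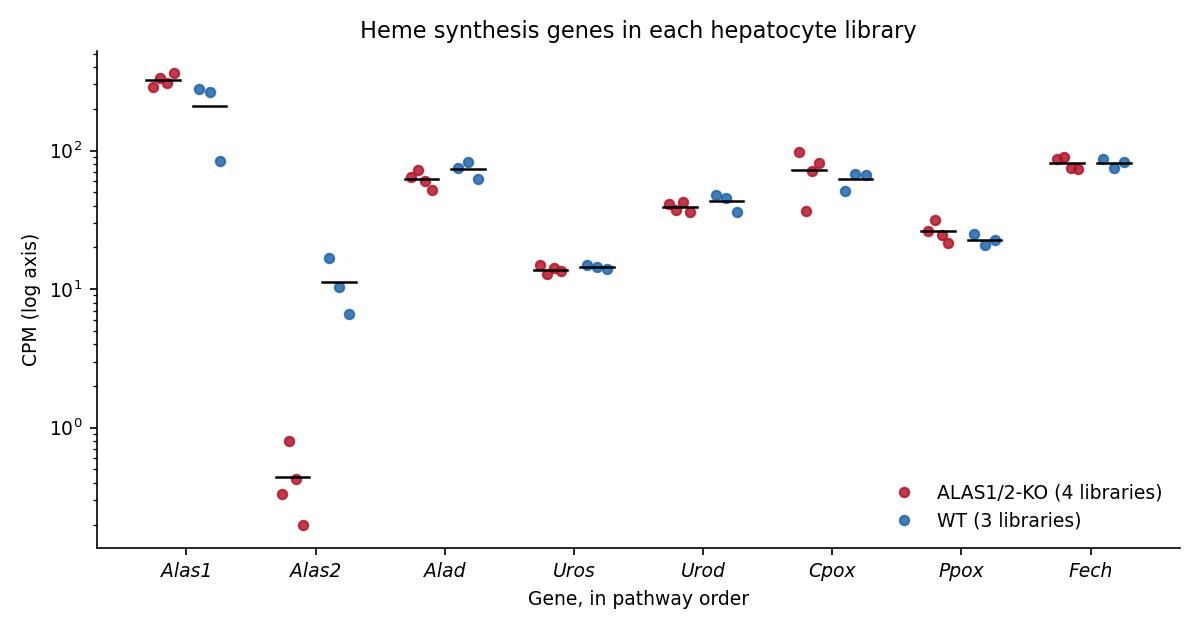
CPM (log axis) of the 8 genes in each library, in pathway order, with ALAS1/2-KO in red (4 libraries), WT in blue (3 libraries) and a bar at each group's mean. Alas2 lies at 0.198 to 0.800 CPM in ALAS1/2-KO and 6.65 to 16.9 CPM in WT, while the 6 genes after the entry step overlap between the groups.

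Alas1 was abundant in every ALAS1/2-KO library. It had 287, 332, 307 and 361 CPM in ALAS1/2-KO replicates 1 to 4, against 280, 265 and 83.5 CPM in WT replicates 1 to 3. The groups did not overlap, but only by a narrow gap, with 287.3 CPM the lowest in ALAS1/2-KO and 279.5 CPM the highest in WT, and WT replicate 3 stood far below the rest. The group means were 322 ± 31.7 CPM in ALAS1/2-KO and 209 ± 109 CPM in WT (SD, n = 4 and 3), a log2 fold change of 0.80 (SE 0.41, 95% confidence interval -0.15 to 1.75) that did not pass in limma (adjusted p = 0.277). The exact two-sided permutation test over the 35 regroupings of the libraries gave p = 0.0286, the smallest the design allows. Without WT replicate 3 the log2 fold change was 0.24. Counting error was small beside this spread, since the lowest library still held 2853 Alas1 reads.

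Alas1 varied widely within WT and less within ALAS1/2-KO. Pooled over both groups, its within-group SD was 0.63 on the log2 scale, larger than that of 89.5% of genes tested. Its highest library was 1.26 times its lowest in ALAS1/2-KO and 3.35 times in WT, where replicate 3 stood apart at 83.5 CPM. Despite the spread it remained a highly expressed gene, above 97.7% of genes in ALAS1/2-KO means and 96.9% in WT means. No annotated neighbour shares exon bases with the Alas1 transcript, and the longest run of identical bases in the Alas1 and Alas2 transcripts was 20 bases.

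Alas2 transcripts were nearly lost from the ALAS1/2-KO libraries. Alas2 (ENSMUSG00000025270.13, chrX:150547375-150570638, plus strand) had 0.333, 0.800, 0.428 and 0.198 CPM in ALAS1/2-KO replicates 1 to 4, against 16.9, 10.3 and 6.65 CPM in WT replicates 1 to 3. These levels rested on 11, 26, 14 and 6 reads in the ALAS1/2-KO libraries and on 323, 259 and 227 reads in the WT libraries. The groups lay far apart, with the highest ALAS1/2-KO library well below the lowest WT library, and the ALAS1/2-KO values are the ones that counting error touches. For the 6 reads of ALAS1/2-KO replicate 4 the exact 95% Poisson interval ran from 0.0726 to 0.431 CPM, and it covers counting error only. The means were 0.440 ± 0.258 CPM in ALAS1/2-KO and 11.3 ± 5.18 CPM in WT (SD, n = 4 and 3), and the limma log2 fold change was -4.51 (SE 0.46, 95% confidence interval -5.56 to -3.47, adjusted p = 0.0027). On the linear scale Alas2 was 22.8 times lower in ALAS1/2-KO, with an interval of 11.1 to 47.0 times. Adding 1 CPM to every value before taking logs gave -3.02.

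Within each group Alas2 spread widely, 4.04 times between its highest and lowest ALAS1/2-KO library and 2.54 times between its highest and lowest WT library. Part of the Alas2 transcript, 311 bases or 15.3%, lies over exons of Apex2, a DNA repair gene on the opposite strand. No source used here says whether counting used strand, so reads in that stretch cannot be assigned to either gene with certainty. Apex2 averaged 5.90 CPM in ALAS1/2-KO and 7.25 CPM in WT, and its log2 fold change of -0.28 (SE 0.25) did not pass (limma adjusted p = 0.518).

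Because Alas2 is an enzyme of red cell precursors, red cell transcripts were read beside it. Of 22 red cell markers, 5 were tested: the globin genes Hba-a1, Hba-a2, Hbb-bs and Hbb-bt, and Tmcc2. The other 17, among them the membrane anion exchanger Slc4a1 and the globin chaperone Ahsp, were not analysed here. The 5 summed to 4.54 to 9.33 CPM in ALAS1/2-KO and 15.2 to 45.1 CPM in WT, with no overlap. Hbb-bt, a beta globin, was lower in ALAS1/2-KO in limma (0.348 ± 0.232 against 2.07 ± 0.969 CPM, log2 fold change -2.46, SE 0.58, adjusted p = 0.0483) but not by limma voom on the recovered reads (adjusted p = 0.0561). The other 4 did not pass, although all 5 had an unadjusted p under 0.05, as did 23.7% of all genes tested. Hbb-bt reached 1 CPM only in the WT libraries (1.17 to 3.10 CPM, against 0.0917 to 0.627 CPM in ALAS1/2-KO). It entered the test, which required 1 CPM in 3 libraries, through WT alone. Its place among the 5 is therefore not independent of its lower level in ALAS1/2-KO. Near-identical globin copies can share reads, so single globin genes are uncertain.

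Globin transcripts differed in the same direction as Alas2, by a smaller ratio of means. The 4 globin genes together had 3.57, 6.52, 2.75 and 7.39 CPM in ALAS1/2-KO replicates 1 to 4, against 21.5, 41.3 and 11.3 CPM in WT replicates 1 to 3. The groups did not overlap, and the WT mean was 4.88 times the ALAS1/2-KO mean, where for Alas2 it was 25.6 times. Alas2 per 100 CPM of globin transcript, a ratio chosen after the values were seen, was 9.96 ± 5.48 in ALAS1/2-KO and 54.0 ± 27.2 in WT (SD, n = 4 and 3). In single libraries that ratio ran from 2.68 to 15.6 in ALAS1/2-KO and from 24.9 to 78.6 in WT, again without overlap. The part of red cell RNA in the Alas2 difference was not tested further.

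**Figure D3:**
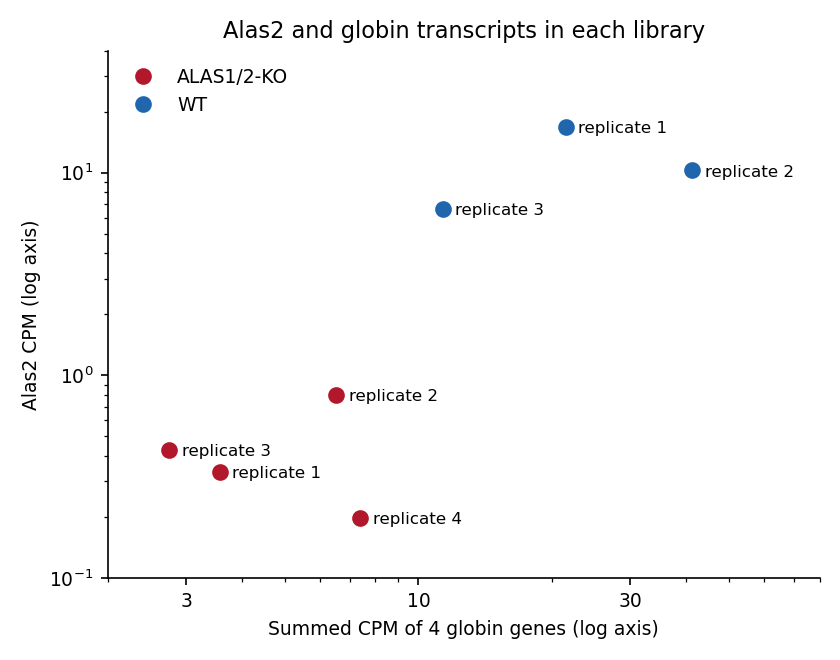
Alas2 CPM (log axis) against the summed CPM of Hba-a1, Hba-a2, Hbb-bs and Hbb-bt (log axis) in each library, with ALAS1/2-KO in red and WT in blue. Globin runs from 2.75 to 7.39 CPM in ALAS1/2-KO and from 11.3 to 41.3 CPM in WT. Alas2 runs from 0.198 to 0.800 CPM in ALAS1/2-KO and from 6.65 to 16.9 CPM in WT. The groups overlap on neither axis.

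The factors that drive Alas2 in red cell precursors gave little to compare. Gata1, Tal1 and Nfe2, transcription factors of that lineage, were not analysed here. Klf1, an activator of globin genes named after its values were seen, stood near the detection filter at 0.886 to 1.38 CPM in ALAS1/2-KO and 0.878 to 1.43 CPM in WT. The cofactor Ldb1 had 34.0 ± 4.21 CPM in ALAS1/2-KO and 28.2 ± 2.49 CPM in WT, and its partner Lmo2 had 3.39 ± 1.51 CPM in ALAS1/2-KO and 5.22 ± 0.710 CPM in WT. Of the 3 tested, 0 passed by limma or limma voom and 0 had an unadjusted limma p under 0.05.

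With both synthase genes divided by transcript length, Alas2 was a trace of the ALAS transcripts in ALAS1/2-KO and a minor part of them in WT. Alas2 made up 0.175, 0.365, 0.211 and 0.0831% of summed Alas1 and Alas2 CPM per kilobase in ALAS1/2-KO replicates 1 to 4, against 8.38, 5.56 and 10.8% in WT replicates 1 to 3. The groups did not overlap (0.208 ± 0.117% in ALAS1/2-KO and 8.24 ± 2.61% in WT, exact permutation p = 0.0286). Because Alas2 was far lower and Alas1 was not lower in ALAS1/2-KO, this share restates the Alas2 difference, and its p is no separate result. The summed ALAS level was 104 ± 10.3 CPM per kilobase in ALAS1/2-KO and 73.3 ± 37.4 CPM per kilobase in WT, and these sums overlapped. WT replicate 3, low in Alas1, had the highest Alas2 share and the lowest sum, at 30.3 CPM per kilobase.

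After the entry step none of the 6 genes passed in limma, and their log2 fold changes ran from -0.24 for Alad to 0.19 for Ppox. Without adjustment, 0 of the 6 had a limma p under 0.05, where the share over all genes was 23.7%. By limma voom, which calls 5.24% of all genes tested, 1 of the 8 enzyme genes passed, again Alas2. The summed CPM of the 6 was 295 ± 25.6 in ALAS1/2-KO and 297 ± 12.1 in WT (SD, n = 4 and 3).

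**Figure D4:**
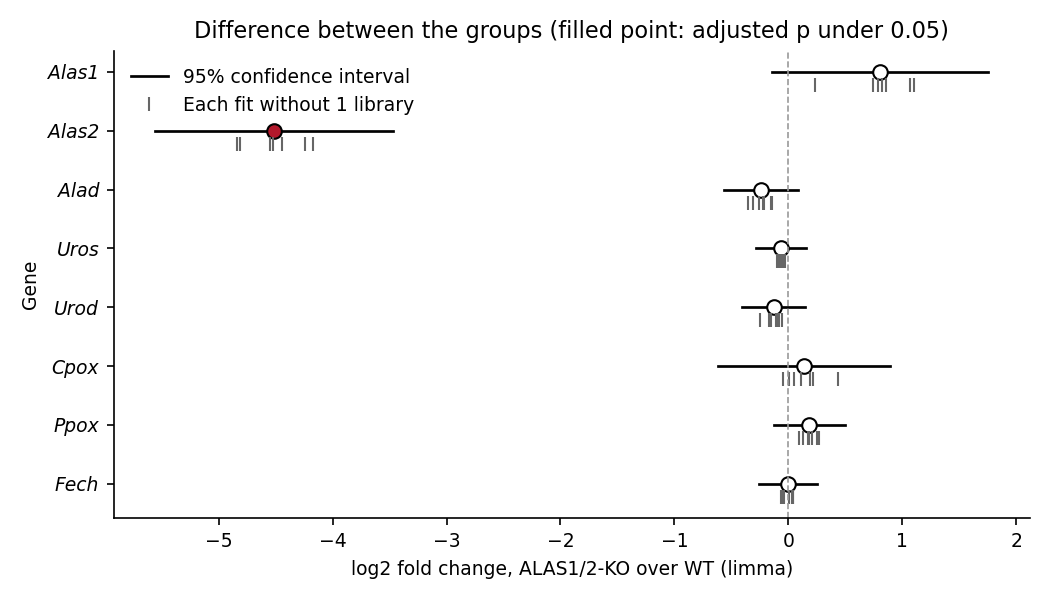
Log2 fold change of each gene, ALAS1/2-KO over WT, from limma, with its 95% confidence interval (line) and the values from the fits that leave out 1 library each (ticks). The Alas2 interval runs from -5.56 to -3.47, and the intervals of the other 7 genes include 0.

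Alad, which makes porphobilinogen (ENSMUSG00000028393.10, chr4:62509169-62519918, minus strand), had 65.0, 72.0, 60.6 and 52.0 CPM in ALAS1/2-KO replicates 1 to 4, against 75.5, 82.8 and 62.1 CPM in WT replicates 1 to 3. The groups overlapped through WT replicate 3. The log2 fold change was -0.24 (SE 0.14, 95% confidence interval -0.56 to 0.09, limma adjusted p = 0.353).

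Uros, which closes the ring (ENSMUSG00000030979.13, chr7:133686243-133710072, minus strand), had 14.8, 12.8, 14.3 and 13.5 CPM in ALAS1/2-KO, against 14.9, 14.4 and 14.0 CPM in WT. It was the steadiest of the 8 genes, with a within-group SD of 0.08 on the log2 scale that only 3.49% of genes tested undercut. Its log2 fold change was -0.06 (SE 0.10, 95% confidence interval -0.28 to 0.16, limma adjusted p = 0.732).

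Urod, which trims the ring's acidic side chains and whose loss in people causes a skin porphyria (ENSMUSG00000028684.14, chr4:116989965-116994413, minus strand), had 40.9, 37.4, 42.8 and 36.0 CPM in ALAS1/2-KO, against 47.7, 45.6 and 36.2 CPM in WT. WT replicate 3 was again the lowest WT library and lay among the ALAS1/2-KO values. The log2 fold change was -0.13 (SE 0.12, 95% confidence interval -0.41 to 0.15, limma adjusted p = 0.554).

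Cpox, the first of the mitochondrial oxidases (ENSMUSG00000022742.6, chr16:58670292-58717636, plus strand), had 98.2, 36.5, 71.7 and 80.8 CPM in ALAS1/2-KO replicates 1 to 4, against 51.3, 68.2 and 66.1 CPM in WT replicates 1 to 3. ALAS1/2-KO replicates 1, 3 and 4 lay above every WT library and ALAS1/2-KO replicate 2 lay below every one. The highest ALAS1/2-KO library was 2.69 times the lowest, and the within-group SD exceeded that of 85.2% of genes tested. The log2 fold change of 0.14 (SE 0.32, 95% confidence interval -0.62 to 0.89, limma adjusted p = 0.832) became -0.04 without ALAS1/2-KO replicate 1 and 0.43 without ALAS1/2-KO replicate 2. ALAS1/2-KO replicate 1, the highest in Cpox, was the library lowest in Kupffer, endothelial and stellate markers. ALAS1/2-KO replicate 2, the lowest in Cpox, lay below replicates 3 and 4 in every Kupffer and endothelial marker and in most stellate markers. The part of these cells in the Cpox levels was not tested.

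Ppox, the oxidase that makes protoporphyrin (ENSMUSG00000062729.11, chr1:171275990-171281186, minus strand), had 26.4, 31.5, 24.7 and 21.7 CPM in ALAS1/2-KO, against 24.8, 20.9 and 22.5 CPM in WT. The groups overlapped, and ALAS1/2-KO replicate 2, the lowest library in Cpox, was the highest in Ppox. The log2 fold change was 0.19 (SE 0.14, 95% confidence interval -0.12 to 0.50, limma adjusted p = 0.445).

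Fech, which places iron in the ring (ENSMUSG00000024588.9, chr18:64452914-64490251, minus strand), had 87.0, 89.8, 74.7 and 73.2 CPM in ALAS1/2-KO, against 86.3, 74.7 and 82.5 CPM in WT. The means were 81.2 ± 8.47 CPM in ALAS1/2-KO and 81.2 ± 5.92 CPM in WT (SD, n = 4 and 3), with a log2 fold change of -0.00 (SE 0.11, 95% confidence interval -0.26 to 0.25, limma adjusted p = 0.990). On the deposited scaling, a change in either direction of more than 0.26 on the log2 scale lay outside that interval. With CPM rescaled to the listed genes the log2 fold change of Fech was 0.33.

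Of the 3 other library scalings run, 1 turned the sign of some of these small differences. With CPM rescaled to the reads of the listed genes, the median log2 fold change of all genes tested was 0.32, against -0.02 as deposited. On that scale Alad, Uros, Urod and Fech had positive values of 0.10, 0.27, 0.21 and 0.33, and Alas1 (1.14, limma adjusted p = 0.0432) and Ppox (0.52, limma adjusted p = 0.049995) passed, where 22.6% of all genes tested passed and 20.9% were higher. Relative to the median of all genes, the values hardly differed between the scalings. For Alas1 it was 0.82 on both, for Ppox 0.20 on both, and for Alas2 -4.52 rescaled and -4.50 as deposited. The adjusted p of Alas1 ran from 0.0432 to 0.400 over all the alternatives run.

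Alas1 was also set against the later enzymes of the same library. The log2 ratio of Alas1 CPM to the mean log2 CPM of the 6 later genes was 2.66, 3.08, 2.90 and 3.23 in ALAS1/2-KO replicates 1 to 4, against 2.72, 2.64 and 1.08 in WT replicates 1 to 3. This ratio does not depend on library scaling, and on it WT replicate 1 lay above ALAS1/2-KO replicate 1, so the groups overlapped. The means were 2.97 ± 0.25 in ALAS1/2-KO and 2.15 ± 0.93 in WT (SD, n = 4 and 3), a difference of 0.82 that was 0.29 without WT replicate 3.

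Levels of different genes were ordered per kilobase of transcript, using the same annotated transcript for each gene in both groups. In ALAS1/2-KO the order was Alas1 at 104 CPM per kilobase, Alad at 50.02, Urod at 26.4, Cpox at 23.2, Ppox at 14.3, Fech at 12.4, Uros at 7.85 and Alas2 at 0.216. Neighbours from Urod through Cpox and Ppox to Fech overlapped in their ranges over the 4 libraries, while Alas1, Alad, Uros and Alas2 did not overlap a neighbour. In WT the same order held by mean, with Alas1 at 67.7 CPM per kilobase, Alad at 58.9, Urod at 29.0, Cpox at 19.98, Ppox at 12.5, Fech at 12.4, Uros at 8.19 and Alas2 at 5.53. There the neighbours that overlapped were Alas1 with Alad, Ppox with Fech, and Uros with Alas2. The place of Fech rests on its transcript: its annotated transcripts run from 1753 to 6571 bases, and with the shortest its level was 46.3 CPM per kilobase in both groups.

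Genes around the pathway showed no member past the limma threshold in any of the remaining lists. For substrate supply to ALAS and its turnover, 0 of 8 passed by limma or limma voom, with a median log2 fold change of 0.11. Of the 8, 1 had an unadjusted limma p under 0.05, where the share over all genes was 23.7%. The most abundant were Shmt2, a mitochondrial enzyme of serine and glycine exchange, at 121 ± 11.5 CPM in ALAS1/2-KO and 108 ± 14.9 CPM in WT, and Suclg2, a subunit of succinyl-CoA synthetase, at 109 ± 16.9 CPM in ALAS1/2-KO and 94.7 ± 10.5 CPM in WT. Suclg1, named after its values were seen and the subunit that partners Suclg2, had 99.0, 108, 87.5 and 85.3 CPM in ALAS1/2-KO replicates 1 to 4, against 80.9, 61.9 and 61.5 CPM in WT replicates 1 to 3. Its groups did not overlap, and it missed the threshold (log2 fold change 0.49, SE 0.14, limma adjusted p = 0.0836). Clpx, the unfoldase of the mitochondrial ClpXP protease, which acts on ALAS, was also named after its values were seen. It had 52.3 ± 15.9 CPM in ALAS1/2-KO and 73.6 ± 17.9 CPM in WT (limma adjusted p = 0.276).

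In the list of porphyrin and iron transport and of assembly around ferrochelatase, 0 of 11 passed by limma or limma voom and 4 of 11 had an unadjusted limma p under 0.05, where the share over all genes was 23.7%. The 4 had log2 fold changes of both signs. Pgrmc1, a heme-binding membrane protein that associates with ferrochelatase and the most abundant of the list, had 714, 612, 612 and 708 CPM in ALAS1/2-KO replicates 1 to 4, against 757, 831 and 810 CPM in WT replicates 1 to 3 (log2 fold change -0.28, SE 0.11, limma adjusted p = 0.171). Slc25a37, mitoferrin 1, a mitochondrial iron importer named after its values were seen, had 35.9, 50.7, 29.4 and 36.2 CPM in ALAS1/2-KO, against 19.5, 22.1 and 27.6 CPM in WT (log2 fold change 0.71, SE 0.19, limma adjusted p = 0.0786). Pgrmc1 lay below and Slc25a37 above all WT libraries in each of the 4 ALAS1/2-KO libraries. Abcg2, a plasma membrane porphyrin exporter also named after its values were seen, had a log2 fold change of -0.37 (limma adjusted p = 0.112). Slc25a39, a mitochondrial glutathione carrier, was level at 190 ± 18.3 CPM in ALAS1/2-KO and 186 ± 27.1 CPM in WT.

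For heme breakdown, export and sensing, 0 of 8 passed by limma or limma voom. Of the 8, 1 had an unadjusted limma p under 0.05, where the share over all genes was 23.7%. Blvrb, a biliverdin reductase, had 43.4 ± 4.26 CPM in ALAS1/2-KO and 51.2 ± 3.66 CPM in WT, and Hmox2, the constitutive heme oxygenase, had 35.6 ± 2.60 CPM in ALAS1/2-KO and 37.6 ± 3.36 CPM in WT. Hmox1, the inducible heme oxygenase and named after its values were seen, had 9.77, 18.5, 37.7 and 32.2 CPM in ALAS1/2-KO replicates 1 to 4, against 28.6, 32.1 and 33.7 CPM in WT replicates 1 to 3. Its low ALAS1/2-KO libraries, replicates 1 and 2, were also the low ones in the macrophage marker Adgre1, likewise named after its values were seen (6.32 and 23.4 CPM, against 54.7 and 50.4 CPM in replicates 3 and 4), and the part of macrophages in its level was not tested. Flvcr2, a membrane transporter related to the heme exporter FLVCR1, was the 1 gene with an unadjusted p under 0.05 and was named for that (4.81 ± 1.08 CPM in ALAS1/2-KO and 2.91 ± 0.406 CPM in WT, limma adjusted p = 0.0982).

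Among transcription factors known to act on Alas1, 0 of 8 tested passed by limma or limma voom, and Npas2 was not analysed here. Of the 8, 0 had an unadjusted limma p under 0.05, where the share over all genes was 23.7%. The median log2 fold change of the 8 was 0.16. The hepatocyte factors Hnf4a and Cebpa, the most abundant of them, had 407 ± 60.1 and 158 ± 32.7 CPM in ALAS1/2-KO, and 360 ± 53.5 and 136 ± 18.7 CPM in WT. The coactivator Ppargc1a, which raises Alas1 in fasting and was named after its values were seen, had 4.45 ± 0.524 CPM in ALAS1/2-KO and 3.99 ± 0.502 CPM in WT.

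The genes whose log2 CPM followed Alas1 most closely over the 7 libraries, among 8781 genes with at least 5 CPM in the higher group, were Tarbp2, a double-stranded RNA binding partner of Dicer (Pearson r = 0.99), the glutaredoxin gene Glrx (0.98), the metallothionein genes Mt1 (0.96) and Mt2 (0.96), and the transcription factor gene Cebpb (0.96). This is a description over libraries that share the groups and the low WT replicate 3. In that library Tarbp2 had 5.18 CPM, against 7.26 to 8.18 CPM in ALAS1/2-KO and 7.57 and 7.62 CPM in the other WT libraries. All 5 were lowest in WT replicate 3, and none passed in limma. Without WT replicate 3 the r values were 0.82 for Tarbp2, 0.58 for Glrx, 0.94 for Mt1, 0.58 for Mt2 and 0.34 for Cebpb, so that Mt1 was the 1 of these 5 that still followed Alas1 at 0.9 or more. Mt1 had 302, 315, 297 and 362 CPM in ALAS1/2-KO replicates 1 to 4, against 260, 244 and 149 CPM in WT replicates 1 to 3 (log2 fold change 0.59, SE 0.19, limma adjusted p = 0.119). Over all 7 libraries 54 genes, or 0.615%, reached an r of at least 0.9 with Alas1, and 9 genes an r of -0.9 or lower.

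**Figure D5:**
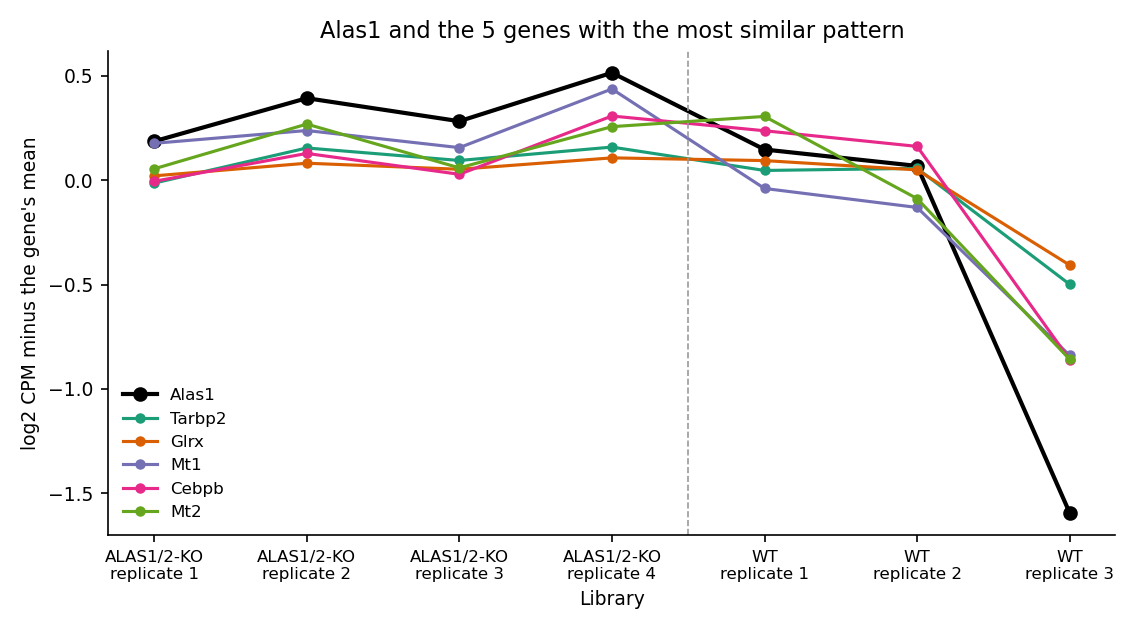
Log2 CPM minus each gene's mean over the 7 libraries for Alas1 (black) and the 5 genes with the highest Pearson r with it, with ALAS1/2-KO libraries left of the dashed line and WT libraries right of it; the lines join points of a gene and imply no order. All 6 genes are lowest in WT replicate 3, and Alas1 falls furthest there.

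The genes closest to Alas2 in the same measure followed the difference between the groups. They were Atpif1, an inhibitor of the mitochondrial ATP synthase (Pearson r = 0.997), Ptgds, a prostaglandin D synthase (0.99), the centromere protein gene Cenpb (0.99), Asb2, a ubiquitin ligase subunit (0.99), and Chmp1a, of the membrane-sorting ESCRT machinery (0.98). Since Alas2 separates the groups, genes chosen for a high r with it separate them too, and their log2 fold changes of -0.46, -3.12, -0.63, -2.05 and -0.51, in that order, are a description. Atpif1, whose protein is described in zebrafish and mouse red cell precursors as a factor for ferrochelatase activity, had 11.6, 12.2, 11.8 and 11.2 CPM in ALAS1/2-KO replicates 1 to 4, against 16.7, 16.0 and 15.6 CPM in WT replicates 1 to 3. An r of at least 0.9 with Alas2 was reached by 183 genes, or 2.08%, and an r of -0.9 or lower by 280 genes.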

How the data were processed

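RNA was taken up in Trizol and 1 µg per sample went into TruSeq RNA version 2 libraries, per the labels' protocols. Tools named are cutadapt and HISAT2 with mm10, per the submitters' processing notes; versions, counter, annotation, strand use and scaling software were not given in the sources used here. The authors deposited log2 CPM values with a small prior. Taking 2 to each value and subtracting a common floor of 0.0676 CPM gave the CPM, which were whole reads within 0.01 reads for 100% of values. Listed reads were 27933939 to 30195635 in ALAS1/2-KO and 22916097 to 34048680 in WT.

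The test was limma 3.58.1 in R 4.3.3 on the deposited values (trend, robust), two-sided, over 12105 genes with at least 1 CPM in 3 libraries, with Benjamini-Hochberg adjustment; fold changes are ALAS1/2-KO over WT. Single values had exact two-sided permutation tests over 35 regroupings. Limma voom ran on the recovered reads. Other alternatives changed the filter, the pseudocount, the scaling, the variance model and the libraries used. The members and gene lists were chosen with earlier results of these data known. Named were all 8 members, list genes that passed or else the 2 most abundant, and the 5 genes most correlated with Alas1 and with Alas2; beside these, cell type markers that passed are named, and others are marked as named after their values were seen. Nothing in the labels says that replicates are separate animals, and if they are not, the p-values describe technical spread alone. Positions are from GENCODE M21 on mm10.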

Additional observations from a re-analysis of the deposited data

Results flagged for a closer look

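Among 102 values examined over the 4 ALAS1/2-KO libraries, 2 had a single library apart from the other 3, fewer than the about 1 in 20 that chance gives. Tmem14c, a mitochondrial porphyrin carrier gene from the transport list, had 69.4 CPM in ALAS1/2-KO replicate 1 against 75.6 to 76.8 CPM in the other 3. Ptgds, among the genes closest to Alas2, had 19.8 CPM in ALAS1/2-KO replicate 2 against 10.7 to 11.9 CPM in the other 3. ALAS1/2-KO replicate 2 was also the highest of its group in Alas2, but Ptgds was chosen for following Alas2 over these libraries, so this is no separate observation.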

How the results depend on the processing

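Alas2 was lower and passed in all 18 alternatives (log2 fold change -4.84 to -3.02, adjusted p 0.000228 to 0.0382), and Alas1 was higher in all of them (0.24 to 1.14). With CPM rescaled to listed genes, where 22.6% of all genes tested passed, 3 members passed, Alas2, Alas1 (1.14) and Ppox (0.52), and values turned positive for Alad (0.10), Uros (0.27), Urod (0.21) and Fech (0.33); the shift of the median of all genes under this scaling is given with those results. Leaving out 1 library at a time, Cpox ran from -0.043 to 0.43 and Fech from -0.062 to 0.045. The Alas2 share of ALAS per kilobase differed by -9.36 to -6.76 percentage points, with exact p values of 0.0667 to 0.1, which are the smallest that so few libraries allow.

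Counts over all genes moved more. As deposited, 617 genes changed, 352 higher and 265 lower. With CPM rescaled to listed genes 2735 changed, 2533 of them higher and 202 lower; with libraries scaled on genes other than the mitochondrial ones and the top 20 in abundance 562 changed, 238 higher and 324 lower; without the intensity trend 306 (158 and 148), and with array weights 2001 (1030 and 971). Without 1 library the counts were 100 to 802 changed, 58 to 389 higher and 42 to 413 lower, lowest without WT replicate 2 and highest without ALAS1/2-KO replicate 1. The deviations of same-numbered libraries had r values of -0.03, 0.05 and 0.18, within the range of unlike-numbered ones (-0.33 to 0.36). With so few libraries these values cannot decide whether the numbers pair them, and the labels give the numbers no meaning. With a replicate block, in which ALAS1/2-KO replicate 4 does not inform the contrast, 72 genes changed (33 higher and 39 lower), Alas2 passed (-4.25, adjusted p = 0.0382) and Fech was 0.045. The causes of these shifts were not tested. Depth limits Alas2 in ALAS1/2-KO, where libraries held 6 to 26 reads.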
